A study of Rattus norvegicus with 40 samples.

Results

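Tcp11l1, Ttbk2, MAMDC2 and Nkain4 are 4 of the 31677 gene models, and of the 14949 with a symbol, that were quantified in T cells from the kidneys and blood of Dahl salt-sensitive rats, which are inbred and develop hypertension on salt. They were chosen by their high FPKM in kidney cells of SS/CRL rats on high-salt chow and by the fold change there over low-salt chow, so their excess in that group describes the choice and is not a finding. RNA was sequenced from 40 libraries, 4 in each of 10 groups, and each library held a pool of 3 rats. The kidney groups were SS/CRL rats on HS chow for 3 weeks and on LS chow, and SS/MCW rats on HS chow for 3 weeks and on LS chow, all at 10 weeks of age, together with SS/MCW rats on LS chow at 7 weeks. Circulating T cells came from the same 5 kinds of rats. SS/CRL and SS/MCW are the rat types of the labels, all of the SS strain, and LS and HS name the low-salt and high-salt chow.

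Expression is given as the authors' FPKM (fragments per kilobase of transcript, scaled to the mapped fragments), 1 value per group in each of 15 tables that compare a pair of groups. No spread among the 4 libraries stands beside any value, and the depth of the libraries is unknown. The standard error (SE) of a log2 fold change is the one implied by the deposited test statistic. A gene was called higher or lower where the authors' deposited table gave a q under 0.05 with status OK. T cell markers were present in every kidney group, with a summed level of 226 to 827 FPKM over 14 genes, against 4432 to 5574 FPKM in circulating cells. Proximal tubule markers summed to 2993 to 12415 FPKM over 13 genes in the kidney groups and to 0.469 to 1.28 FPKM in circulating cells, so the kidney libraries held tubule RNA beside that of T cells. In such bulk RNA, more cells of a type and more RNA per cell cannot be told apart.

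The 4 genes belong to different families. Ttbk2 encodes tau tubulin kinase 2, a serine/threonine kinase related to casein kinase 1, which acts at the mother centriole to start the assembly of the primary cilium, and whose human gene is mutated in a spinocerebellar ataxia. MAMDC2 encodes a secreted proteoglycan that carries MAM domains, modules found in several adhesion proteins and membrane proteases. Nkain4 encodes a small membrane protein of a family named for its interaction with the sodium pump, the Na,K-ATPase that drives sodium reabsorption along the nephron. Tcp11l1 encodes a relative of the testis protein TCP11.

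On build rn5 the authors' gene model of Tcp11l1 lay at chr3:101247425-101278392, that of Ttbk2 at chr3:119220410-119332778, that of Nkain4 at chr3:180154132-180174989 and that of MAMDC2 at chr1:248356067-248506484. The 3 genes of chromosome 3 lie far apart on it. That chromosome held 6.84% of the gene models tested between SS/CRL HS and LS kidney cells and 7.80% of those called higher.

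Promoters are printed because all 4 genes stood high in the same group, and they show the sequence at the starts of those with an entry. RefSeq promoters on build GRCr8 were found for 3 of the 4 genes, each 300 bases long from 250 bases before the start to 50 after it, on the minus strand. Those of Ttbk2 (chr3:128256367-128256666), Tcp11l1 (chr3:111546405-111546704) and MAMDC2 (chr1:230442942-230443241, the first of 2 entries) read as below, 5′ to 3′, with matches to the motifs searched in capitals.
Ttbk2: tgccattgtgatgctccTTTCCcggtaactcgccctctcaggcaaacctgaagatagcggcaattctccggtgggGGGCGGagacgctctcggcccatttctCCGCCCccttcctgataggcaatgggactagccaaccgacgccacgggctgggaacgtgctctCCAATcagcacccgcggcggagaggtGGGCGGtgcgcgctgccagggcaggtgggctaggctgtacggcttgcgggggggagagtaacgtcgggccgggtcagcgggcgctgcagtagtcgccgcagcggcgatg
Tcp11l1: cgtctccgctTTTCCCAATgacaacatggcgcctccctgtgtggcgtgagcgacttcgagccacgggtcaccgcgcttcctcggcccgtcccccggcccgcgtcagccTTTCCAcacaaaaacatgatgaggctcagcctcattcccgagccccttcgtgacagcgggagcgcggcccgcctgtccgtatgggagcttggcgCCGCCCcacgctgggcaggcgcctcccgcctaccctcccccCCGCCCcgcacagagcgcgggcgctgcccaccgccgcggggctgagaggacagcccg
MAMDC2: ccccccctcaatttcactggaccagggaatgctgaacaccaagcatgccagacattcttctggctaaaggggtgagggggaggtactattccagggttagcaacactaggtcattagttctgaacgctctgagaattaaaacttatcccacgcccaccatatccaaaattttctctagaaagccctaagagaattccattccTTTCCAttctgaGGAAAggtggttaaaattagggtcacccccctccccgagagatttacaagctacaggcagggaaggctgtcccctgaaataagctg

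The promoters of Tcp11l1 and Ttbk2 were rich in GC (71.3% and 66.7%) and in CpG dinucleotides (35 and 29). The MAMDC2 promoter had 48.0% GC and 3 CpG dinucleotides, where the median of 33469 rat promoters of the same length was 51.7% GC, with quartiles of 44.7% and 60.3%, and 7 CpG dinucleotides. On either strand Ttbk2 held 3 GC boxes (GGGCGG) and Tcp11l1 held 2, and both held 1 CCAAT box (CCAAT). MAMDC2 held neither. These letters occur in 33.1% and 37.5% of all promoters.

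The core of the tonicity element (TGGAAA), which is bound by the osmotic regulator NFAT5, occurred once each in the Tcp11l1 and MAMDC2 promoters and in 22.7% of all promoters. The NFAT core (GGAAA, not counted within TGGAAA) occurred once in each of the 3, and in 52.7% of all promoters. In Tcp11l1 it shares 1 base with the CCAAT box. No promoter of the 3 held TATAAA, the E box CACGTG, the AP-1 site TGANTCA, the cyclic AMP element TGACGTCA or GTTGCC of the X box bound by RFX factors, which occur in 14.2%, 6.42%, 7.33%, 1.83% and 12.2% of all promoters. A match describes letters in this window and shows no binding.

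Kidney cells of SS/CRL rats on HS held more of each of the 4 transcripts than any other group, by construction of the choice, but the levels in the remaining groups differed between the genes. Ttbk2 averaged 19.5 FPKM over the tables in kidney cells of SS/CRL rats on HS (17.9 to 20.5) and 1.21 FPKM in those of SS/CRL rats on LS. In kidney cells of SS/MCW rats it averaged 2.45 FPKM on HS, 2.06 FPKM on LS at 10 weeks and 2.83 FPKM on LS at 7 weeks. It was the only one of the 4 with a level above 1 FPKM in blood, at 2.13 and 1.78 FPKM in SS/CRL rats on HS and LS and at 1.58, 1.79 and 1.62 FPKM in SS/MCW rats on HS and on LS at 10 and 7 weeks. Apart from the SS/CRL HS kidney cells, its kidney and blood levels thus spanned a common range, and the kidney cells of SS/CRL rats on LS were the lowest of the 10 groups.

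**Figure D1:**
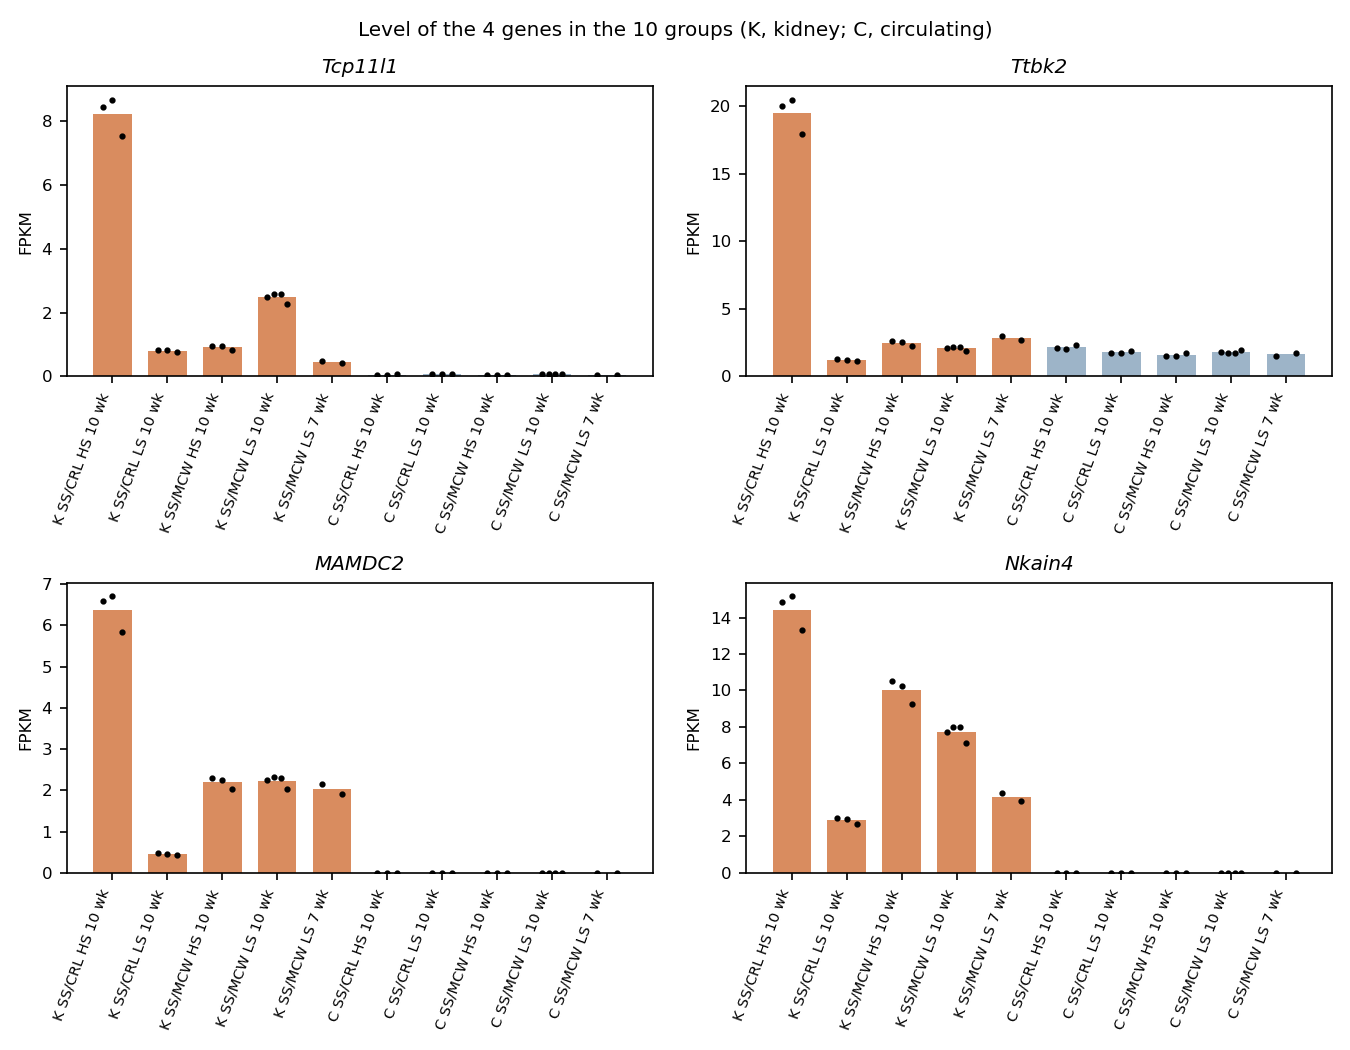
FPKM of the 4 genes (vertical axis, linear) in the 5 kidney groups (orange) and 5 circulating groups (blue); each point is the value in 1 deposited table, its spread being scaling between tables and not replicate error, and the bar is their mean. Ttbk2 stands at 19.5 FPKM in SS/CRL HS kidney cells and at or below 2.83 FPKM elsewhere, while Nkain4 also reaches 10.02 FPKM in SS/MCW HS kidney cells.

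Tcp11l1 averaged 8.22 FPKM in kidney cells of SS/CRL rats on HS (7.54 to 8.68) and 0.803 FPKM in those of SS/CRL rats on LS. In kidney cells of SS/MCW rats it averaged 0.911 FPKM on HS, 2.48 FPKM on LS at 10 weeks and 0.450 FPKM on LS at 7 weeks. In blood it did not exceed 0.0689 FPKM. The next-highest group was thus a low-salt one, SS/MCW LS at 10 weeks, and the means of the SS/MCW HS and SS/CRL LS kidney cells lay near each other.

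MAMDC2 averaged 6.38 FPKM in kidney cells of SS/CRL rats on HS (5.84 to 6.70) and 0.454 FPKM in those of SS/CRL rats on LS. Kidney cells of SS/MCW rats had 2.19 FPKM on HS, 2.22 FPKM on LS at 10 weeks and 2.03 FPKM on LS at 7 weeks. MAMDC2 was listed at 0 in all 5 circulating groups. Of the 4 genes it was the one whose SS/MCW kidney groups lay closest to each other.

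Nkain4 averaged 14.4 FPKM in kidney cells of SS/CRL rats on HS (13.3 to 15.2) and 2.89 FPKM in those of SS/CRL rats on LS. Kidney cells of SS/MCW rats had 10.02 FPKM on HS (9.26 to 10.5), 7.70 FPKM on LS at 10 weeks and 4.16 FPKM on LS at 7 weeks. It was listed at 0 in 4 circulating groups and had 0.00791 FPKM in SS/MCW rats at 7 weeks. Nkain4 thus stood in steps over the kidney groups, and its SS/CRL HS level was 1.44 times that of SS/MCW HS.

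The same ratio to the next-highest group was 6.88 for Ttbk2, 3.32 for Tcp11l1 and 2.87 for MAMDC2. Among 8697 gene models with a symbol and at least 5 FPKM in kidney cells of SS/CRL rats on HS, 1319 had their highest mean there. Of these, 122 exceeded the next group by at least 1.4 times, 26 by at least 2 times and 10 by at least 3 times. Ttbk2 and Tcp11l1 are among the 10, MAMDC2 among the 26 and Nkain4 among the 122. The ratio uses the levels by which the genes were chosen, so these places describe the choice.

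Kidney cells of SS/CRL rats were compared between HS and LS chow, and this is the comparison on which the genes were picked. Ttbk2 had 20.1 FPKM on HS and 1.26 FPKM on LS, a log2 fold change of 3.99 (SE 1.21, q = 0.0245 in the authors' deposited table). MAMDC2 had 6.60 FPKM on HS and 0.476 FPKM on LS, a log2 fold change of 3.79 (SE 2.36, q = 0.0106 in the authors' deposited table). Tcp11l1 had 8.45 FPKM on HS and 0.837 FPKM on LS, a log2 fold change of 3.34 (SE 1.74, q = 0.0147 in the authors' deposited table). These folds of 15.9, 13.9 and 10.1 were ranks 1 to 3 among 211 named gene models that were called higher with at least 5 FPKM on HS and a value above 0 on LS.

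Nkain4 had 14.8 FPKM on HS and 3.03 FPKM on LS, a log2 fold change of 2.29 (SE 1.29, q = 0.0330 in the authors' deposited table) and rank 5. Just outside the choice, Gpr126, an adhesion receptor gene, had 29.6 FPKM on HS and 7.94 FPKM on LS, a log2 fold change of 1.90 (the authors' deposited table gave q = 0.0262). All 4 genes were called higher, where 5.51% of the 20501 gene models tested were called, 2.44% higher and 3.07% lower. As the contrast chose them, nothing is read from that count. At a q under 0.01, or with a normal p of the deposited statistic adjusted over all gene models, 0 of the 4 were called.

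The implied standard errors were wide. They lay between 1.21 and 2.36 for the 4 genes, against a median of 0.953 over all gene models tested, and a normal p of the deposited statistic alone was 0.00102 for Ttbk2, 0.0557 for Tcp11l1, 0.0749 for Nkain4 and 0.109 for MAMDC2. Among 8753 tested gene models with a symbol, at least 5 FPKM on HS and a value above 0 on LS, 15 had a log2 fold change at least as high as that of Nkain4, of which 5 were called. These 15, and the 5 called, include the 4 genes themselves, which this contrast chose. A fold of that size was thus not always called, and nothing more is read from the count.

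**Figure D2:**
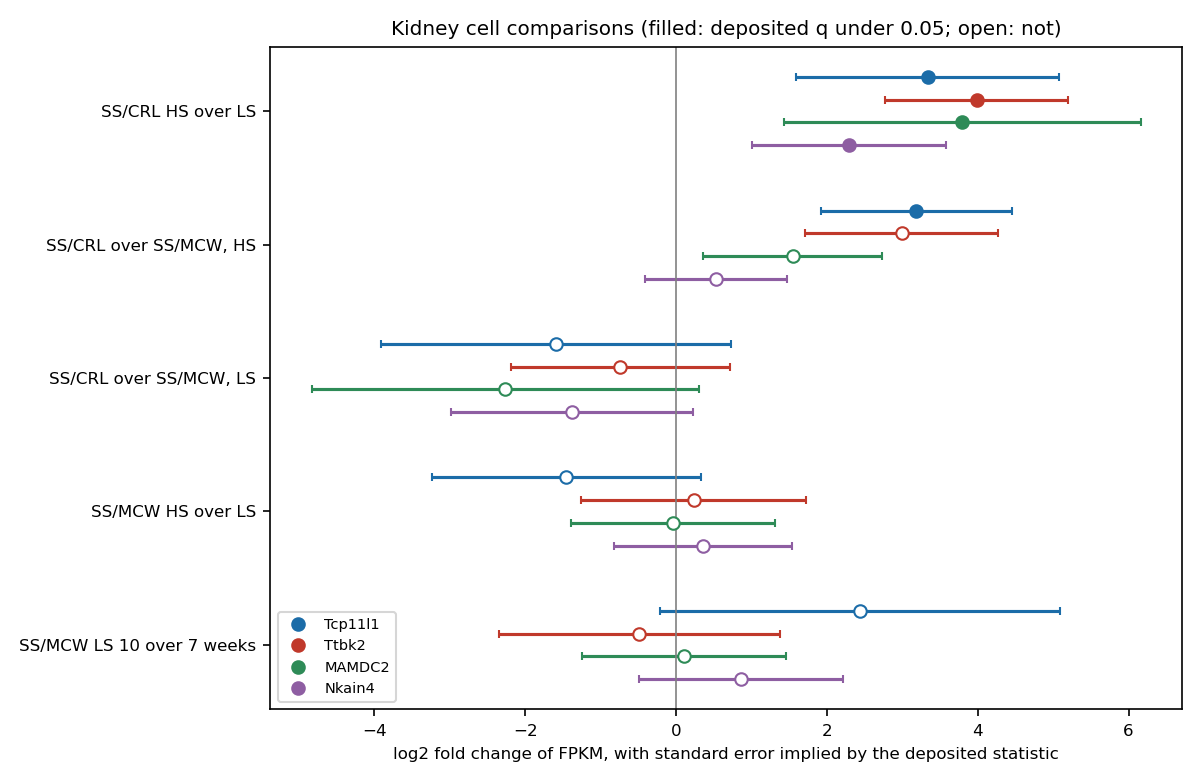
Log2 fold change of FPKM (horizontal axis) of the 4 genes in the 5 kidney comparisons, with bars of 1 standard error implied by the deposited statistic; filled points were called at a q under 0.05 and open points were not. The 4 filled points of SS/CRL HS over LS lie between 2.29 and 3.99, and Tcp11l1 alone is filled in another comparison, at 3.19 in SS/CRL over SS/MCW on HS.

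The rat types were then compared on HS, with the same SS/CRL HS kidney cells on top, so that these values too describe the choice. Tcp11l1 had 8.68 FPKM in SS/CRL and 0.953 FPKM in SS/MCW kidney cells, a log2 fold change of 3.19 (SE 1.27, q = 0.00417 in the authors' deposited table). Ttbk2 had 20.5 FPKM in SS/CRL and 2.58 FPKM in SS/MCW cells, a log2 fold change of 2.99 (SE 1.28, q = 0.203 in the authors' deposited table). Tcp11l1 was called and Ttbk2 was not, at like folds and standard errors.

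MAMDC2 had 6.70 FPKM in SS/CRL and 2.30 FPKM in SS/MCW cells on HS (log2 fold change 1.54, SE 1.18, q = 0.335 in the authors' deposited table). Nkain4 had 15.2 FPKM in SS/CRL and 10.5 FPKM in SS/MCW cells (0.53, SE 0.94, q = 0.610 in the authors' deposited table). So 1 of the 4 was called, in a table where 5.72% of gene models were called, and 0 with the adjusted normal p. The difference between the rat types on HS was smallest for Nkain4 and was within its standard error.

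On LS the order of the rat types was the other way round for all 4 genes, but none was called, where 1.81% of gene models were. MAMDC2 had 0.466 FPKM in SS/CRL and 2.24 FPKM in SS/MCW kidney cells, a log2 fold change of -2.26 (SE 2.57), with an unadjusted p of 0.00945 (the authors' deposited table gave q = 0.223). Tcp11l1 had 0.821 and 2.48 FPKM in SS/CRL and SS/MCW cells (-1.59, SE 2.32), Nkain4 had 2.96 and 7.70 FPKM (-1.38, SE 1.60) and Ttbk2 had 1.24 and 2.07 FPKM (-0.74, SE 1.45). The table shares the SS/CRL LS cells with the contrast that chose the genes, in which a low value on LS helped a gene to be picked.

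The comparisons of HS with LS and of ages within SS/MCW kidney cells hold neither group of the contrast that chose the genes. None of the 4 genes was called between HS and LS in SS/MCW kidney cells, where 0.433% of gene models were called, and the authors' deposited table gave q = 0.9996 for each. Ttbk2 had 2.51 FPKM on HS and 2.14 FPKM on LS (log2 fold change 0.23, SE 1.49) and MAMDC2 had 2.25 FPKM on HS and 2.31 FPKM on LS (-0.04, SE 1.35). Nkain4 had 10.3 FPKM on HS and 8.01 FPKM on LS (0.36, SE 1.18), and Tcp11l1 had 0.942 FPKM on HS and 2.58 FPKM on LS (-1.45, SE 1.78). Each difference lay within its standard error, which is too wide to show that salt left the levels as they were. The SS/CRL values chose the genes, so no test of the difference between the salt effects of the rat types is given.

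Between 10 and 7 weeks in SS/MCW kidney cells on LS, none of the 4 was called, where 1.07% of gene models were. Tcp11l1 had 2.57 FPKM at 10 weeks and 0.475 FPKM at 7 weeks, a log2 fold change of 2.43 (SE 2.65, q = 0.695 in the authors' deposited table). Nkain4 had 7.99 and 4.40 FPKM at 10 and 7 weeks (0.86, SE 1.35), MAMDC2 had 2.31 and 2.15 FPKM (0.11, SE 1.35) and Ttbk2 had 2.13 and 2.99 FPKM (-0.49, SE 1.87). No difference exceeded its standard error.

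Ttbk2 was the only one of the 4 genes that the authors' tables tested within circulating cells, and it was called in none of the 5 comparisons there. In blood of SS/CRL rats it had 2.07 FPKM on HS and 1.72 FPKM on LS (log2 fold change 0.27, SE 0.52, q = 0.784 in the authors' deposited table), where 0.670% of gene models were called. Its log2 fold changes in the 5 circulating comparisons lay between -0.19 and 0.40, with standard errors of 0.40 to 0.66 and q values of 0.784 to 1, all from the authors' deposited tables. The shares called in the other 4 tables were 0.241% for SS/CRL over SS/MCW on HS, 0.541% for SS/CRL over SS/MCW on LS, 0.107% for SS/MCW HS over LS and 1.94% for 10 over 7 weeks. The excess of Ttbk2 in kidney cells of SS/CRL rats on HS had no counterpart of its size in their blood. As that kidney excess was used to choose the gene, nothing is read from the difference.

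Kidney cells were set against circulating cells of the same kind of rats, to ask whether the transcripts belong to the tissue. In SS/CRL rats on HS all 4 genes were called higher in kidney, in a table where 50.9% of gene models were called and which the choice used. Ttbk2 had 17.9 FPKM in kidney and 2.30 FPKM in blood (log2 fold change 2.96, SE 0.92, q = 0.0165 in the authors' deposited table). Tcp11l1 had 7.54 FPKM in kidney and 0.0584 FPKM in blood (7.01, SE 8.98), and MAMDC2 and Nkain4 had 5.84 and 13.3 FPKM in kidney and were listed at 0 in blood.

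In SS/CRL rats on LS 2 of the 4 genes were tested and both were called, where 53.5% of gene models were. Nkain4 was higher in kidney, with 2.69 FPKM in kidney and 0 listed in blood. Ttbk2 was lower in kidney, with 1.13 FPKM in kidney and 1.90 FPKM in blood, a log2 fold change of -0.75 (SE 0.80, q = 0.0334 in the authors' deposited table). Ttbk2 was thus called higher in kidney than in blood on HS and lower on LS in SS/CRL rats. Both tables hold a group of the contrast that chose the genes, so this is a description.

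The SS/MCW rats give tables that the choice did not use. In SS/MCW rats on HS 3 of 4 genes were called, all higher in kidney, where 49.0% of gene models were called, and in SS/MCW rats on LS at 10 weeks again 3 of 4, where 43.6% were. Nkain4 had 9.26 FPKM on HS and 7.09 FPKM on LS in kidney, MAMDC2 had 2.03 FPKM on either chow, and both were listed at 0 in blood. Tcp11l1 had 0.837 FPKM in kidney and 0.0535 FPKM in blood on HS (the authors' deposited table gave q = 0.0131), and 2.28 FPKM in kidney and 0.0614 FPKM in blood on LS (the authors' deposited table gave q = 0.0263). Ttbk2 was called in neither, with log2 fold changes of 0.43 (SE 1.05) on HS and -0.04 (SE 0.81) on LS.

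In SS/MCW rats at 7 weeks 3 of the 4 genes were tested and 1 was called, MAMDC2, with 1.91 FPKM in kidney and 0 listed in blood, where 56.7% of gene models were called. Nkain4 had 3.93 FPKM in kidney and 0.00830 FPKM in blood and was not called (the authors' deposited table gave q = 0.296). A 0 in blood bore on such calls in this table. Of gene models with at least 1 FPKM in kidney, 85.1% were called where blood was listed at 0, against 17.8% where blood was above 0 but under 0.05 FPKM. Over the 5 tables these shares were 68.7% to 85.1% and 9.44% to 18.6%, so a call of MAMDC2 or Nkain4 against a listed 0 says little beyond the 0 itself. With the adjusted normal p, 1 of the 4 genes was called in SS/CRL rats on HS and 0 in the other 4 tables. Gene models with a listed 0 have no statistic and drop out there.

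Over the 10 groups the levels of MAMDC2 and Nkain4 went together most closely among the 6 pairs, with a Pearson r of 0.98 between log2 values of FPKM plus 0.1, and 0.89 over the 5 kidney groups. Tcp11l1 had an r of 0.93 with MAMDC2 and 0.92 with Nkain4. Ttbk2 had an r of 0.71, 0.65 and 0.53 with Tcp11l1, MAMDC2 and Nkain4. These r values describe 10 group means that share the gap between tissues and the SS/CRL HS group by which the genes were chosen.

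The gene models most like each gene over the 10 groups, of 12364 with at least 1 FPKM in their highest group, were not the same from gene to gene. Nearest to Ttbk2 were Lhx4, a LIM homeobox factor gene (r 0.95), Hkdc1, a hexokinase gene (0.93), and Catsper2, a sperm calcium channel gene (0.92). Lhx4 had 4.83 FPKM in SS/CRL HS kidney cells and did not exceed 0.0241 FPKM in any other group. Hkdc1 had 1.88 FPKM there and at most 0.255 FPKM in the other groups.

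Nearest to Tcp11l1 were the transcriptional coregulator genes Cited4 (r 0.99) and Cited2 (0.98) and the F-box gene Fbxl2 (0.98). Cited4 had 2.74 FPKM in SS/CRL HS, 0.526 FPKM in SS/CRL LS, 0.549 FPKM in SS/MCW HS, 1.39 FPKM in SS/MCW LS at 10 weeks and 0.357 FPKM in SS/MCW LS at 7 weeks, all kidney cells. This is the order of Tcp11l1 over the kidney groups. Cited2, at 118 and 80.8 FPKM in SS/CRL kidney cells on HS and LS, has the pattern at a high level and with small folds, since r takes no account of size.

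Nearest to MAMDC2 were the zinc finger gene Zfp449 (r 0.994), Hint3 (0.993) and Clec16a (0.990). Nearest to Nkain4 were Nckap5 (r 0.998), the alpha-1D adrenergic receptor gene Adra1d (0.998) and the plakophilin gene Pkp1 (0.997). Adra1d had 8.30 and 2.79 FPKM in SS/CRL kidney cells on HS and LS, and 7.43, 5.47 and 3.96 FPKM in SS/MCW kidney cells on HS and on LS at 10 and 7 weeks, the steps described for Nkain4. Genes absent from blood have high r values with each other through the gap between tissues alone.

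No tested relative of these genes in the TCP11 and NKAIN families was called between HS and LS in SS/CRL kidney cells. Tcp11l2 had 16.1 and 18.6 FPKM on HS and LS as means over the tables (log2 fold change -0.24), and Nkain1, the only other gene of the NKAIN family matched, had 2.42 and 7.36 FPKM (-1.63), for which the authors' deposited table gave q = 0.684 and q = 0.109. Neither was called. Ttbk1, the closest kinase relative of Ttbk2, was listed at 0 on both chows.

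Among kinases related to casein kinase 1, 9 were tested and none was called, with a median log2 fold change of -0.07. Csnk1g1, the gene of a membrane-bound casein kinase 1, had the largest of these values, with 15.8 and 1.91 FPKM on HS and LS as means over the tables, a log2 fold change of 3.03 (the authors' deposited table gave q = 0.0903). Its kidney levels in SS/MCW rats were 2.29 FPKM on HS, 1.38 FPKM on LS at 10 weeks and 1.42 FPKM on LS at 7 weeks. It was singled out after its values were seen, and like Ttbk2 it had its highest kidney level in SS/CRL rats on HS. Of 40 genes of primary cilium assembly, the process in which Ttbk2 acts, none was called and the median log2 fold change was -0.04, where the median of all gene models tested was 0.05.

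Sodium pump subunits and their FXYD regulators, the partners named in the family of Nkain4, had 1 of 11 tested members called higher and none lower, with a median log2 fold change of 0.40. Of all gene models tested there, 2.44% were called higher and 3.07% lower, so 1 of 11 is no result about the list. The called gene was Atp1b3, the beta-3 subunit, with 179 FPKM on HS and 107 FPKM on LS (0.74, SE 0.41, q = 0.00954 in the authors' deposited table). Of 9 osmotic response genes 4 were called higher and 1 lower, beside those shares of 2.44% and 3.07%, with a median of 0.78. Like the other lists, this list was chosen with earlier results of these data known, so the count is a description. Aldose reductase Akr1b1, which makes sorbitol, had 76.8 FPKM on HS and 39.0 FPKM on LS (0.98, SE 0.45). The betaine transporter gene Slc6a12 had 35.2 and 19.0 FPKM (0.89, SE 0.56) and the glucose transporter gene Slc2a1 had 51.5 and 29.9 FPKM (0.78, SE 0.44). The kinase gene Sgk1 had 72.0 and 154 FPKM (-1.10, SE 0.41). In SS/MCW kidney cells the median of the osmotic response genes was -0.36 for HS over LS, with none of 9 called, beside 0.433% of gene models. For 10 over 7 weeks on LS chow their median was 0.72, with 1 of 9 called higher, where 1.07% of gene models were called. For SS/CRL over SS/MCW kidney cells on HS, none of the 9 was called and their median was 0.25, beside 5.72% of gene models called. On LS none of the 9 was called, where 1.81% of gene models were, and their median was -0.62.

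Between HS and LS in SS/CRL kidney cells, both lists related to MAMDC2 had a positive median log2 fold change. Their called members went different ways. Of 9 tested secreted matrix proteoglycans 3 were called higher on HS, beside 2.44% of all gene models, namely biglycan Bgn with 285 FPKM on HS and 134 FPKM on LS (log2 fold change 1.09, SE 0.46), Prelp with 91.3 and 47.5 FPKM (0.94, SE 0.49) and perlecan Hspg2 with 58.2 and 32.4 FPKM (0.85, SE 0.48). None was called lower, and the median was 0.59. For SS/CRL over SS/MCW kidney cells on HS, 2 of 10 tested proteoglycans were called lower and none higher. There 5.72% of all gene models were called, and the median of the proteoglycans was 0.34. In SS/MCW kidney cells the median of the proteoglycans was -0.10 for HS over LS and 0.52 for 10 over 7 weeks on LS chow. Of 9 genes with MAM domains tested between HS and LS in SS/CRL cells, 2 were called lower, beside 3.07% of all gene models. They were the meprin protease genes Mep1a, with 51.1 FPKM on HS and 113 FPKM on LS (-1.14, SE 0.66), and Mep1b (-0.88, SE 0.56). None of the 9 was called higher, 5 had a positive log2 fold change and the median was 0.23. Meprins sit on the brush border of the proximal tubule, and the summed proximal tubule markers stood at 6862 FPKM on HS and 12415 FPKM on LS in the same cells. Of these 13 markers 9 were called lower and none higher, beside shares of 3.07% and 2.44%. Aqp1 went the other way, with 2476 and 1361 FPKM on HS and LS as means over the tables. Whether tubule content had a part in the meprin values was not tested.

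The neighbours of the 4 genes on the chromosomes were also described. Of the 16 nearest genes with a symbol, 2 on either side of each, 13 were tested between HS and LS in SS/CRL kidney cells and none was called, which at 5.51% called over all gene models is no result about them. Beside Tcp11l1, Cstf3 had 12.0 FPKM on HS and 12.2 FPKM on LS, and Depdc7 had 11.7 and 17.4 FPKM. Beside Ttbk2, Cdan1, whose gene model lies 0.1 kb away, had 2.93 and 4.37 FPKM, and Ubr1 had 9.51 and 8.11 FPKM.

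Beside MAMDC2, Smc5 had 6.44 FPKM on HS and 7.67 FPKM on LS and Klf9 had 19.7 and 28.5 FPKM. Beside Nkain4, Ythdf1 had 17.2 FPKM on HS and 18.5 FPKM on LS, Arfgap1 had 38.0 and 46.0 FPKM and Col20a1 had 2.90 and 7.13 FPKM. Where a fold could be formed, the log2 values of the 16 lay between -1.30 for Col20a1 and 1.14 for Bhlhe23, which was not tested. Between the rat types on HS, Depdc7 alone of the 16 was called, higher in SS/CRL kidney cells with a log2 fold change of 1.24. There 5.72% of all gene models were called, so a lone call is no result about the neighbours. Between HS and LS in SS/CRL cells its log2 fold change was -0.58, opposite in direction to that of Tcp11l1.

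**Figure D3:**
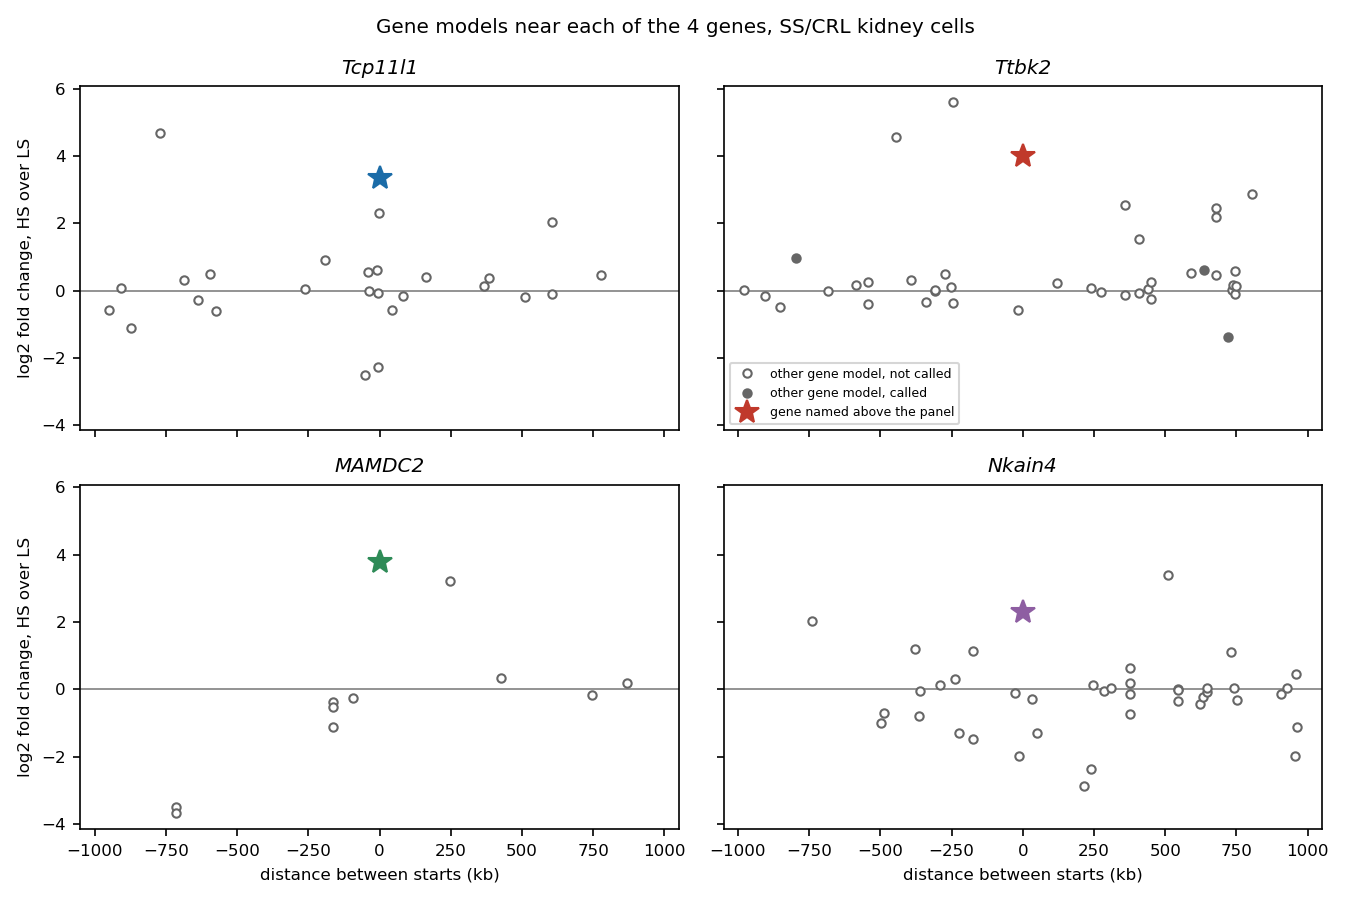
Log2 fold change of HS over LS in SS/CRL kidney cells (vertical axis) of each gene (star) and of the other gene models within 1000 kb on either side that had at least 1 FPKM on either chow and a value above 0 on both (circles, filled where called), against the distance between starts in kb. Among these, 3 circles near Ttbk2 are filled, and Stard9, at 5.62 and 246.4 kb before the start of Ttbk2, is the highest open circle.

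With starts within 1000 kb on either side, 0 of 25 other gene models tested were called around Tcp11l1, 3 of 40 around Ttbk2, 0 of 10 around MAMDC2 and 2 of 41 around Nkain4, where 5.51% of all gene models tested were called. Those called near Nkain4 have no symbol, start 249.5 and 617.4 kb after it and had 16.7 and 11.3 FPKM on HS, and both were listed at 0 on LS. Among gene models with at least 1 FPKM on either chow and a value above 0 on both, tested or not, the median log2 fold changes were 0.05 over 26 around Tcp11l1, 0.11 over 40 around Ttbk2, -0.32 over 10 around MAMDC2 and -0.10 over 40 around Nkain4. The called genes near Ttbk2 were Ehd4 (0.97) and Ckmt1b (0.62), both higher, and Ell3 (-1.38), which was lower. Stard9, a kinesin gene that lies 246.4 kb before Ttbk2, had 9.69 FPKM on HS and 0.197 FPKM on LS, a log2 fold change of 5.62 (SE 3.99, q = 0.212 in the authors' deposited table). Catsper2, named above for its likeness to Ttbk2, starts 676.6 kb after it and had 6.12 FPKM on HS and 1.33 FPKM on LS (SE of the log2 fold change 4.80, q = 0.610 in the authors' deposited table). Both were not called, and Stard9 was picked out after its value was seen. A gene model without a symbol overlaps Ttbk2 and had 0.243 and 0.225 FPKM on HS and LS. Whether reads were counted by strand is not given in the sources used here.

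Markers of other cell types moved between the same kidney groups. In SS/CRL rats on HS over LS, the summed level was 1.66 times as high for 13 endothelial markers, 1.54 times for 12 fibroblast and mural markers, 1.47 times for 15 markers of the thick limb and distal nephron, 1.30 times for 10 podocyte markers and 1.25 times for 6 Schwann and nerve markers. The ratio was 1.05 for 10 mesothelial, 0.850 for 7 B cell, 0.760 for 14 T cell, 0.714 for 11 macrophage, 0.553 for 13 proximal tubule and 0.225 for 7 red cell markers. Single genes made up most of some sums. Mgp had 64.3 and 37.8 FPKM on HS and LS, of fibroblast and mural sums of 92.4 and 60.1 FPKM. Umod had 1500 and 1024 FPKM, of thick limb and distal nephron sums of 2472 and 1684 FPKM. The smallest fold among the 4 genes, in the contrast that chose them, was the 4.90 of Nkain4. No listed marker sum was higher on HS by as much, but the sums do not cover cell types outside the lists. Whether cell types had a part in the folds of the 4 genes was not tested. The red cell sum of 672 FPKM on HS, against 2990 FPKM on LS, was lower by nearly as much.

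Over SS/MCW HS, the SS/CRL HS sums were 1.78 times as high for endothelial, and 2.11 times for proximal tubule markers, also higher for red cell markers, and lower for the other 8 lists, down to 0.273 for T cell and 0.249 for macrophage markers. Only 3 of the 13 endothelial markers had their highest level in SS/CRL HS kidney cells, beside 5 of 15 for the thick limb and distal nephron. The thick limb and distal nephron sum was lower in SS/CRL HS than in SS/MCW HS cells, with Umod at 1500 and 6013 FPKM. In that list Aqp2 went the other way, with 337 and 93.7 FPKM. Of its 15 tested markers 3 were called higher and 1 lower, beside 5.72% of all gene models called. Their median log2 fold change was -0.13, and a sum can hide such differences within a list. As a sum, the endothelial list alone was higher in SS/CRL HS cells in both comparisons, as the 4 genes were through the choice. Its sum was 286 FPKM in SS/CRL HS and 173 FPKM in SS/CRL LS kidney cells, 161 FPKM in SS/MCW HS, 251 FPKM in SS/MCW LS at 10 weeks and 272 FPKM in SS/MCW LS at 7 weeks, with none of its markers at 0 in kidney. In blood it summed to 111 to 125 FPKM. In the SS/CRL salt comparison 4 of 12 tested endothelial markers were called higher, beside 2.44% of all gene models, among them Plvap with 10.7 FPKM on HS and 4.48 FPKM on LS. The part of any cell type in the levels of the 4 genes was not tested. Of the 10 mesothelial markers, 1 was listed at 0 in SS/CRL kidney cells on HS (Lrrn4) and 2 on LS (Lrrn4 and Upk3b), while Krt7, a keratin gene, had 753 and 703 FPKM on HS and LS and made up most of the sum.

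**Figure D4:**
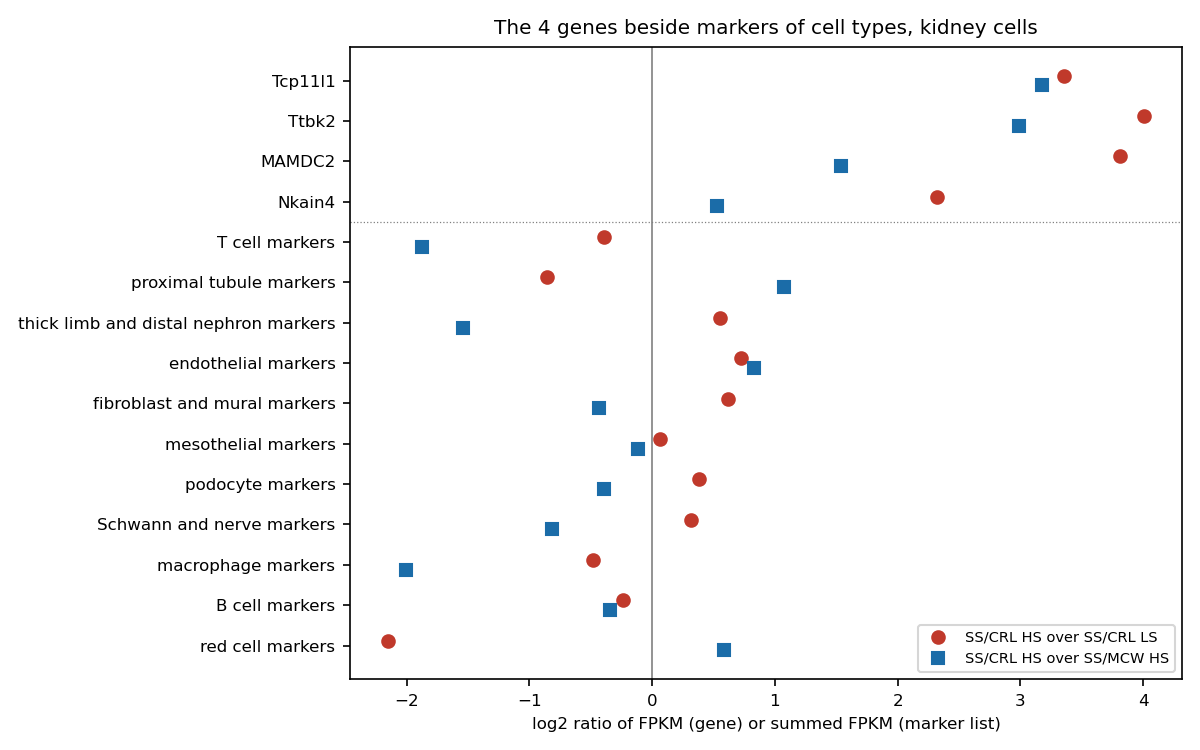
Log2 ratio of the mean FPKM of each gene, and of the summed FPKM of each list of cell type markers, in kidney cells of SS/CRL rats on HS over SS/CRL rats on LS (circles) and over SS/MCW rats on HS (squares). The 4 genes lie to the right of 0 on both, as does the endothelial list with ratios of 1.66 and 1.78, whereas the T cell list lies to the left with ratios of 0.760 and 0.273.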

How the data were processed

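T cell RNA was sequenced from 40 pooled libraries, 4 in each of 10 groups. Per the submitters' processing notes, the tools were cutadapt, Trim Galore 0.2.5, TopHat, TopHat2 2.1.1, Cufflinks 2.2.1 and Cuffdiff, with build rn5. The deposited tables hold FPKM per group, computed by the authors with Cuffdiff per the file headers. The deposited test statistic is a score that the authors took from Cuffdiff. Its p-value and its q-value stand beside it in the deposited tables, and no p was under 5e-05. Library values were not analysed here, so depth and its precision are unknown and no SD, outlier check or run without a replicate could be made. The 4 libraries of a group are separate pools of 3 rats per the labels.

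In the 15 tables HS was set over LS, SS/CRL over SS/MCW, the older over the younger age and kidney over circulating cells, which turned 1 table round. Log2 fold changes come from the deposited FPKM, and standard errors as log2 fold change over statistic. A call needed a q under 0.05 and status OK. Of the tables, 3 hold SS/CRL HS kidney cells and were used in choosing the genes, 2 more share the SS/CRL LS kidney cells, which the plan had counted as unused, and 10 hold neither. A group level is the mean over its tables. Likeness is Pearson's r of log2(FPKM + 0.1) over group means.

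Genes named were the 4 members, the 3 most like each, the 2 nearest with a symbol on either side, up to 4 called members of each list, family relatives and the ranks beside the members; Csnk1g1, Stard9 and the called gene models within 1000 kb were added after their values were seen. The members and lists were chosen with earlier results of these data known. Some gene models that meet these rules are not reported here. Other settings tried were a stricter q of 0.01, gene models of at least 1 FPKM alone with p readjusted, normal p-values of the statistic (recentred or not), another pseudocount, other scaling, and likeness with other settings. The adjustment was tested on simulated data. Promoters and motifs come from a RefSeq table of build GRCr8, searched on both strands. The tools were matplotlib 3.10.9, scipy 1.17.1, numpy 2.4.6, pandas 2.3.3 and Python 3.11.15.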

Additional observations from a re-analysis of the deposited data

How the results depend on the processing

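The log2 ratios of the group means of the 4 genes kept their direction with a pseudocount of 1, with the lowest or highest table value of a group and with scaling by the upper quartile. A pseudocount of 1 lowered those of SS/CRL HS over LS to 3.21 for Ttbk2, 2.35 for Tcp11l1, 2.34 for MAMDC2 and 1.99 for Nkain4, against 4.01, 3.35, 3.81 and 2.32 without it. Keeping gene models of at least 1 FPKM, with p readjusted, left the counts of calls of the 4 genes as they were in 14 comparisons and gave 2 of 3 in kidney over circulating cells of SS/MCW rats on HS. The calls depended on how a p is formed. For SS/CRL HS over LS in kidney cells, 4 calls became 0 at a q under 0.01, 0 with a normal p of the deposited statistic and 0 with that p after recentring. With a normal p, and likewise after recentring, SS/CRL over SS/MCW on HS kept 0 of 1. For kidney over circulating cells the same settings gave 1 of 4 in SS/CRL HS, 0 of 2 in SS/CRL LS, 0 of 3 in SS/MCW HS, 0 of 3 in SS/MCW LS at 10 weeks and 0 of 1 at 7 weeks. A q under 0.01 gave 3 of 4 in SS/CRL HS, 1 of 2 in SS/CRL LS, 2 of 3 in SS/MCW HS, 2 of 3 in SS/MCW LS at 10 weeks and 1 of 1 at 7 weeks. Gene models with a group listed at 0 have no statistic and leave these fits by construction, and the cause of the other losses was not tested.

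The pathway lists together had 6 calls at a q under 0.01 in SS/CRL HS over LS and 1 in SS/MCW at 10 over 7 weeks, and 0 with a normal p, recentred or not, in both and in SS/CRL over SS/MCW on HS. Of the 3 gene models most like each gene, a pseudocount of 1 left 1 for each of the 4. With no minimum level Ttbk2 and MAMDC2 shared 0, and over kidney groups alone Tcp11l1 shared 1 and the other 3 genes 0.

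No paired analysis was possible because the tables give 1 value per group, and leaving out a replicate was not possible for the same reason. Implied standard errors of the 4 genes lay between 0.94 and 2.65 on the log2 scale in the kidney comparisons.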
